A study of Mus musculus with 8 samples.

Results

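Cycling T and innate lymphocytes were liver cells whose RNA held both proliferation genes and a T or natural killer (NK) cell gene. They were chosen by measured unique molecular identifiers (UMIs, each the count of 1 captured RNA molecule). A barcode was first kept as a cell with 200 to 5000 detected genes and at most 30% mitochondrial UMIs. It was then called cycling with at least 3 of the 7 genes Mki67, Top2a, Birc5, Pclaf, Cdk1, Ube2c and Cenpf detected. At least 1 of Cd3e, Cd3d, Cd3g and Ncr1 had to be detected as well, and the 6 genes Kdr, Ptprb, Cd79a, Clec4f, Csf1r and Siglech, which mark endothelial, B, Kupffer, myeloid and plasmacytoid dendritic cells, had to be at 0 UMIs. The rule found 715 cells among 53654 kept cells and among 21993 T and innate lymphocytes, the latter being all kept cells that met the same lineage and exclusion criteria. Non-cycling T and innate lymphocytes, used for comparison, had none of the 7 genes detected and numbered 20039. Their label rests on non-detection and does not show that every such cell was out of cycle.

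The cells came from non-tumor-bearing female C57BL/6J mice aged 9 weeks. In the control group 4 mice were untreated. In the BG-treated group 4 mice had received 1.2 mg of odetiglucan (Imprime PGG), a soluble β-glucan (BG), intravenously, and their livers were taken on day 2. Each mouse gave 1 library of CD45+ liver leukocytes, to which cells recovered over Ficoll from the unbound fraction were added, with dead cells removed. The study asked which transcriptional changes the treatment produced in liver leukocytes at this early time. Treated and control mice differed by the injection as well as by the compound, and proliferation was read from RNA alone, with no count of cells per liver.

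A lymphocyte that enters the cell cycle first copies its DNA (S phase), using a sliding clamp, helicases and nucleotide synthesis enzymes, and then passes through G2 and mitosis (M), for which cyclins, kinesins and centromere proteins are made. The liver is rich in T cells of innate character, among them invariant NKT cells, tissue-resident CD4 and CD8 T cells that carry the chemokine receptor Cxcr6, and NK cells and type 1 innate lymphoid cells that carry the receptor Ncr1 (NKp46). Type I interferons switch on a common set of antiviral genes in nearly all leukocytes, and T and NK cells kill through perforin, which opens membranes, and granzymes, which enter through the pores.

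The 8 libraries held 39612380 to 60654583 UMIs and gave 4644 to 8378 kept cells. The library of BG mouse 5 stood apart, with 27873 barcodes and 66.6% of all its UMIs mitochondrial, against 10745 to 16432 barcodes and 30.5 to 41.9% in the other libraries, so the shares are also given without it. Of 53271 distinct barcode sequences, 382 occurred in at least 2 libraries, and 6 cycling cells carried a barcode also kept in another library. Cycling cells were deep, with a median of 6865 UMIs against 2755 in non-cycling cells, and no doublet caller was applied. Cells over 2500 genes made up a mean of 40.5% of cycling cells in control and 40.8% in BG-treated mice. The exclusion of 6 genes removed 46% of 1325 candidate cells, most often through Ptprb (414 cells) and Kdr (361 cells).

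The lineage genes of the rule, of which each member had to hold at least 1, show which of them brought the cells in. Among the cycling cells, Cd3g was detected in 86.7%, Cd3d in 82.8%, Cd3e in 72.7% and Ncr1 in 17.1%. In 6515 B cells, which should lack these genes and had a median of 2057 UMIs, the shares were 12.5%, 11.5%, 9.47% and 2.04%, in the same order. The label was checked on the T cell receptor constant genes Trac and Trbc2, which the rule did not use. They were detected in 75.1% and 89.9% of cycling cells and in 9.47% and 13.2% of B cells. Cycling cells were deeper, with a median of 6865 UMIs, so the shares beside B cells, here and below, are not at equal depth. A minority of members carried RNA of other cells: at least 3 UMIs of the class II antigen presentation gene H2-Aa were found in 13 control and 24 BG cells, and 2 cells of control mouse 1 held the neutrophil precursor genes Camp and Ngp. Where results rest on these cells, they are also given with 16 further dendritic, neutrophil and other genes required at 0, a requirement chosen after the values had been seen.

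More T and innate lymphocytes were cycling in the BG-treated mice. The control mice had 28, 53, 52 and 37 cycling cells and the BG-treated mice 95, 83, 150 and 217. As a share of T and innate lymphocytes this was 0.824, 1.87, 1.64 and 1.36% in control and 4.33, 3.30, 6.52 and 7.55% in BG-treated mice. The lowest BG-treated mouse lay above the highest control mouse, and the 95% Wilson interval of that BG mouse (2.67 to 4.07%) did not reach that of control mouse 2 (1.44 to 2.44%). These intervals cover counting error only. The group means were 1.43% ± 0.453 (SD, n = 4) and 5.42% ± 1.95 (SD, n = 4), a 3.80-fold difference (two-sided exact permutation test, p = 0.0286, the smallest that 4 against 4 libraries allow).

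**Figure D1:**
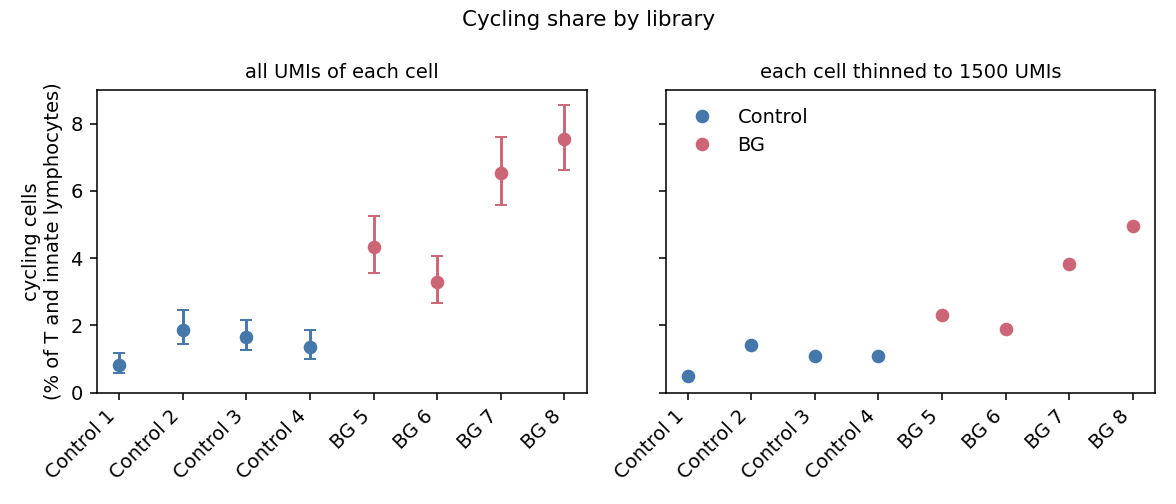
Cycling cells as a percent of T and innate lymphocytes in each library, from all UMIs (left, bars are 95% Wilson intervals) and after thinning each cell to 1500 UMIs (right). The 4 BG-treated mice lie between 3.30 and 7.55% on the left and the 4 control mice between 0.824 and 1.87%.

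Cycling cells also made up more of all kept cells, at 0.563% ± 0.140 (SD, n = 4) in control and 2.31% ± 0.905 (SD, n = 4) in BG-treated mice (4.10-fold, exact permutation test, p = 0.0286). T and innate lymphocytes as a whole were 40.4% and 42.3% of kept cells (exact permutation test, p = 0.543). Depth bears on a rule that counts detected genes, so each cell was thinned to 1500 UMIs, which left out 3851 control and 1981 BG cells below that depth. The thinned shares were 0.5001, 1.43, 1.09 and 1.10% in control and 2.31, 1.90, 3.82 and 4.95% in BG-treated mice, which again did not overlap (3.15-fold, exact permutation test, p = 0.0286). Without any 1 of the control mice the ratio was 3.33 to 4.25-fold (exact permutation tests, p = 0.0571), and without any 1 of the BG-treated mice the exact p stayed at 0.0286. Without BG mouse 5 the ratio was 4.06-fold, and with the 16 further genes at 0 it was 4.08-fold. Median mitochondrial shares of cycling cells were 6.37 to 9.37% in control and 7.34 to 13.3% in BG-treated mice (means 8.14 and 11.1%, exact permutation test, p = 0.114). With cells limited to at most 10% mitochondrial UMIs the share of T and innate lymphocytes differed 3.15-fold, without overlap (exact permutation test, p = 0.0286).

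Cells with 2 to 6 of the cycle genes were about equally common, with no gap at the threshold. There were 1074 cells with 1 of the 7 genes, 165 with 2, 120 with 3, 130 with 4, 128 with 5, 133 with 6 and 204 with all 7. Just outside the threshold, cells with 2 genes had a median of 4858 UMIs and numbered 45 in control and 120 in BG-treated mice. Just inside it, cells with 3 genes had a median of 5757.5 UMIs and numbered 29 and 91. Cells with all 7 genes numbered 55 and 149.

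The same cycling rule was applied to 4 other gates. Among macrophages and monocytes the cycling share was 2.36% in control and 9.48% in BG-treated mice (4.02-fold, exact permutation test, p = 0.0286, 0.114 adjusted over 4 gates), resting on 11 and 53 cells. The BG effect on the ratio of the lymphocyte share to the macrophage share was 0.01 on the log2 scale (exact permutation test, p = 1). Among B cells the shares were 0.296 and 0.907% (exact permutation test, p = 0.2), and the BG effect on the ratio of lymphocytes to B cells was 0.71 on the log2 scale (exact permutation test, p = 0.543). Endothelial cells had 1.01 and 0.796% cycling cells, and the corresponding difference in log2 ratio was 2.15 (exact permutation test, p = 0.0286, 0.114 adjusted over 4 gates). For plasmacytoid dendritic cells, with 5 cycling cells in all, it was 2.02 (exact permutation test, p = 0.114). No gate was therefore shown to differ from lymphocytes after adjustment. The smallest p of the exact permutation test (0.0286), where 1 gate alone reaches it, adjusts to 0.114 over 4 gates. A single differing gate could thus not have passed. The log2 ratios of lymphocytes to endothelial cells did not overlap, at -0.21 to 1.49 in control and 2.11 to 3.10 in BG-treated mice. In the other gates they overlapped.

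Cells were then sorted into 10 subsets by detected lineage genes, and the cycling share was compared within each. It was higher in BG-treated mice in 7 of 10 subsets, each without overlap between the groups (exact permutation test, p = 0.0286, 0.0408 adjusted over the 10 subsets). Regulatory T cells, defined by Foxp3 with a CD3 chain, had 0 of 34 cells cycling in control, which allows a share of up to 8.82%. This limit, 3 counts over the 34 pooled cells, covers counting error only and not the spread between mice. In BG-treated mice 16 of 45 cells were cycling, with shares of 38.5, 25, 44.4 and 36.4%. Foxp3, the lineage factor of these cells, was detected in 2.24% of all cycling cells and in 0.153% of B cells. The Cxcr6-positive CD4 T cells went from 3.86% ± 1.78 to 11.2% ± 2.93 (SD, n = 4 each), 26 of 758 cells against 99 of 874.

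CD8 T cells had 2.13% ± 0.610 cycling cells in control and 5.07% ± 1.01 in BG-treated mice (SD, n = 4 each), a 2.38-fold difference. CD3-negative Ncr1-positive cells, which take in NK cells and type 1 innate lymphoid cells, had 0.617, 0, 2.42 and 2.44% in control and 5.62, 2.68, 13.2 and 9.46% in BG-treated mice. Their fold was 5.64, with a spread among BG-treated mice that was wide but above every control mouse. CD3-positive Ncr1-positive cells went from a mean of 0.719 to 5.05%, and double-negative innate-like T cells, defined by a CD3 chain without CD4 or CD8 and with Klrb1c, Zbtb16 or Cxcr6, from 1.04 to 4.56%. Other double-negative T cells had means of 0.997 and 3.05%. The Cxcr6-negative CD4 T cells did not pass, with 4.35, 1.6, 3.27 and 3.39% in control and 4.69, 1.32, 4.88 and 8.33% in BG-treated mice (exact permutation test, p = 0.343, 0.381 adjusted). Gamma delta T cells (means 1.63 and 4.50%) and cells with both CD4 and CD8 (0 and 6.47%) did not pass either.

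**Figure D2:**
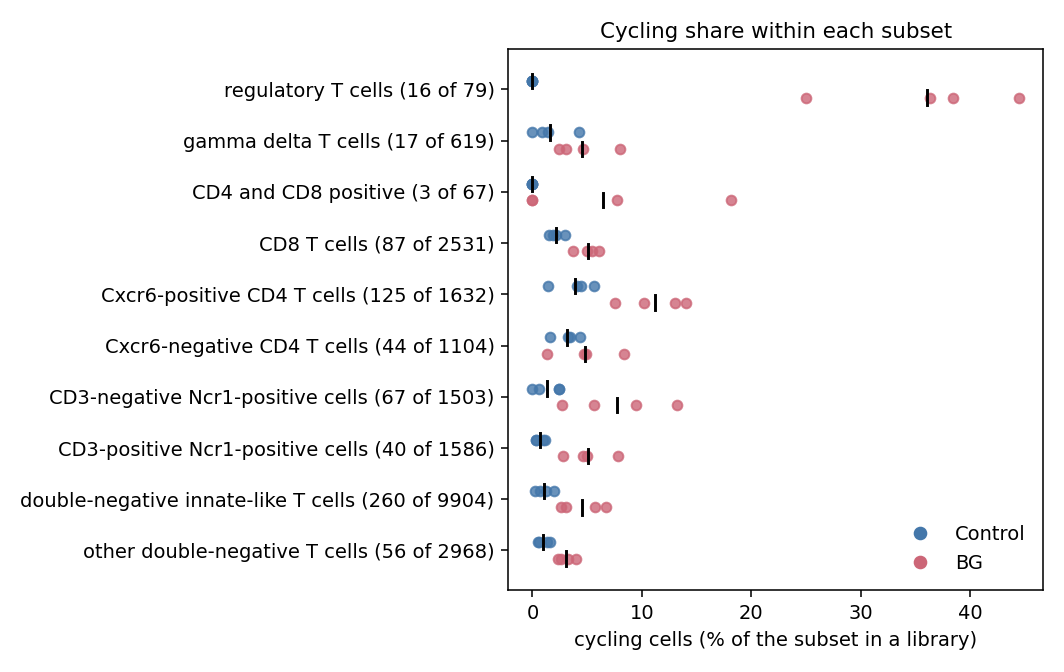
Percent of cells that were cycling within each of the 10 subsets, 1 dot per library and a black bar for the group mean. In 7 subsets the 4 BG-treated mice lie above the 4 control mice, and the Cxcr6-negative CD4 T cells overlap.

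Subset calls lean on genes of low detection, and depth moved them. After thinning to 1500 UMIs per cell no subset passed the adjusted threshold, and 2 passed at the raw p, namely Cxcr6-negative CD4 T cells (2.54 and 5.07%) and other double-negative T cells (1.28 and 3.97%; exact permutation test, p = 0.0286, 0.143 adjusted, for each). Regulatory T cells then had 1 of 25 cells cycling in control and 4 of 21 in BG-treated mice. Without BG mouse 5, 7 subsets passed, while without any 1 of the control mice none did after adjustment (2 or 3 at the raw p).

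In make-up, no subset's share of the cycling cells passed after adjustment. The smallest p of the exact permutation test, where 1 subset alone reaches it, adjusts to 0.286 over 10 subsets. A single differing subset could thus not have passed. From all UMIs, double-negative innate-like T cells were the most common subset among cycling cells, at 36.4% of them against 45.6% of non-cycling cells. At 1500 UMIs per cell they were 33.8% of cycling and 43.1% of non-cycling cells, and other double-negative T cells were then the most common of the cycling cells, at 36.7% (28.4% of non-cycling cells). Double-negative means only that no Cd4 or Cd8 transcript was detected, and thinning loses such transcripts. Among all T and innate lymphocytes, chosen again from the thinned counts, other double-negative T cells went from 2968 to 6369 with thinning. Cxcr6-positive CD4 T cells went from 1632 to 555 and CD8 T cells from 2531 to 1995. Cxcr6-positive CD4 T cells were 17.5% of cycling and 6.88% of non-cycling cells from all UMIs. At equal UMIs they were 2.40 and 2.53%, with no excess seen, on 11 cycling cells. Thinning took more UMIs from cycling cells (median 6865) than from non-cycling cells (2755), so it cannot decide whether the excess is absent. CD3-negative Ncr1-positive cells were likewise 9.37 and 6.67% from all UMIs and 5.46 and 5.51% at equal UMIs, with the same limit. CD8 T cells were 12.2 and 11.5% from all UMIs and 9.17 and 9.02% at equal UMIs. Regulatory T cells were 2.24 and 0.255% from all UMIs and 1.09 and 0.164% at equal UMIs, the latter on 5 cycling cells. Between the groups, from all UMIs, regulatory T cells went from 0 to 3.35% ± 1.47 of cycling cells (SD, n = 4, exact permutation test, p = 0.0286, 0.286 adjusted over 10 subsets). CD8 T cells were 18.6% ± 5.51 of cycling cells in control and 11.2% ± 3.92 in BG-treated mice (exact permutation test, p = 0.0571, 0.286 adjusted). The Cxcr6 transcript, which marks cells resident in liver sinusoids, was detected in 57.2% of cycling cells and in 8.07% of B cells. The NK receptor gene Klrb1c was detected in 35.4% of cycling cells (6.49% of B cells), Cd4 in 24.9% (2.93%) and Cd8a in 11.5% (1.55%).

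The balance of cycle phases differed between the groups. The 34 S phase genes, none of them used to choose the cells, took 0.484, 0.445, 0.499 and 0.472% of UMIs of cycling cells in control and 0.531, 0.633, 0.558 and 0.570% in BG-treated mice. The 39 G2/M genes, also not used by the rule, took 0.523, 0.473, 0.422 and 0.519% in control and 0.369, 0.356, 0.344 and 0.448% in BG-treated mice. The S phase values did not overlap between the groups, while the G2/M value of BG mouse 8 exceeded that of control mouse 3. The ratio of S phase to G2/M UMIs was 0.989 ± 0.128 in control and 1.53 ± 0.220 in BG-treated mice (SD, n = 4 each), a 1.54-fold difference (exact permutation test, p = 0.0286, 0.0381 adjusted over 4 phase measures). For the S phase share alone the adjusted p was 0.0381 and for the G2/M share 0.0571 (exact permutation tests). At 1500 UMIs per cell the S phase shares overlapped, at 0.450 to 0.559% in control and 0.518 to 0.606% in BG-treated mice (exact permutation test, p = 0.114), while the G2/M shares no longer did, at 0.464 to 0.576% and 0.344 to 0.456% (exact permutation test, p = 0.0286).

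**Figure D3:**
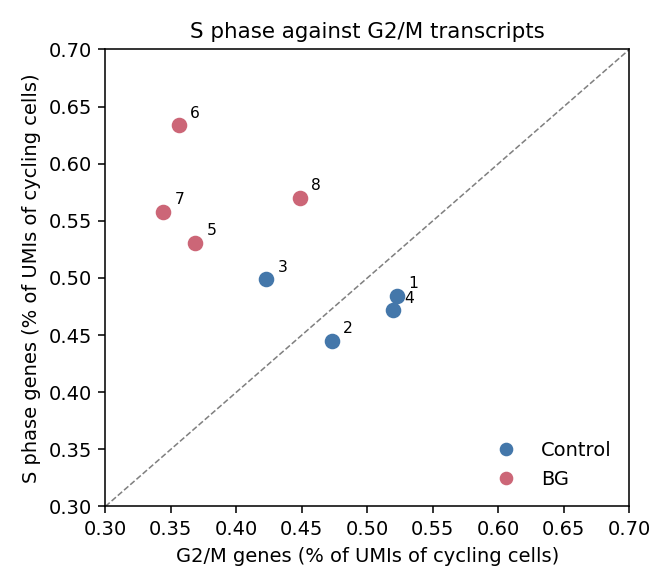
Percent of UMIs from G2/M genes against percent from S phase genes in the cycling cells of each library, with library numbers beside the points and a diagonal where both are equal. The 4 BG-treated mice lie on the S phase side, with S to G2/M ratios of 1.27 to 1.78, and 3 control mice lie just on the other side.

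Counted by cell, those with more S phase than G2/M UMIs made up 50, 43.4, 55.8 and 51.4% of cycling cells in control and 67.4, 73.5, 74.7 and 59.4% in BG-treated mice (means 50.1 and 68.7%, exact permutation test, p = 0.0286, 0.0381 adjusted). After thinning, the ratio differed 1.51-fold (exact permutation test, p = 0.0286), and without control mouse 1, 2 or 4 it differed 1.504 to 1.52-fold (exact permutation tests, p = 0.0571). With the 16 further genes at 0 it was 1.53-fold (exact permutation test, p = 0.0857). Of the genes that chose the cells, Mki67 was detected in 94.7% of all cycling cells, Pclaf in 92.9%, Top2a in 89.7%, Birc5 in 77.8%, Cdk1 in 58.2%, Cenpf in 57.8% and Ube2c in 53%. These shares are fixed in part by the rule.

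Gene by gene, UMIs were summed over the cycling cells of each library, and 5668 genes with enough counts were compared by edgeR's quasi-likelihood test. Sums cannot tell apart fewer cells of a type from less RNA per cell. At a Benjamini-Hochberg adjusted p below 0.05 and a log2 fold change over 0.5, 20 genes were higher in BG-treated mice, 0.353% of those tested, and 14 were lower, 0.247%, Ube2c of the rule among them. Of these 34 calls 9 held in every fit that left out 1 library and tested the gene (Apoe, Bst2, Gzmb, Ifi27l2a, Isg15, Mpeg1, Prf1, Rnf213 and Rtp4), and the losses of the others are given beside them. Prf1 was tested in only 5 of the 8 fits, and the rest of the 9 in all 8. The groups did not overlap for 5.54% of tested genes. Levels are given as CPM, the counts scaled to a common library total, in the order of the mice, and the sums ran from 280525 to 385061 UMIs per library in control and from 611113 to 1465828 in BG-treated mice.

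Interferon-stimulated genes formed the largest called group of the lists examined. Of 49 listed type I interferon genes, 32 passed the filter on low counts and 10 of these rose (Irf7, Isg15, Bst2, Ifi27l2a, Rtp4, Zbp1, Xaf1, Rnf213, Trim30a and Lgals3bp), with none lower. The median log2 fold change of the 32 was 0.64, against a median of -0.00 over all tested genes, and 31 were positive. Ifi27l2a, a small mitochondrial interferon-induced protein, was at 600, 577, 438 and 569 CPM in control and at 1922, 1607, 2324 and 1557 CPM in BG-treated mice (log2 fold change 1.77, SE 0.14, edgeR adjusted p = 8.28e-09). Every BG-treated mouse lay above every control mouse by a wide margin.

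Bst2 (tetherin), which holds budding virus at the membrane, was at 93.3, 98.4, 74.4 and 66.9 CPM in control and at 241, 209, 337 and 182 CPM in BG-treated mice (log2 1.53, SE 0.20, adjusted p = 6.15e-05). Isg15, a ubiquitin-like modifier, was at 29.99, 46.5, 45.8 and 33.5 CPM and at 148, 104, 155 and 88.0 CPM (log2 1.62, SE 0.24, adjusted p = 0.00048). Neither overlapped between the groups. Rnf213, a large ubiquitin ligase, was at 29.99, 43.7, 42.9 and 40.9 CPM in control and at 113, 110, 114 and 106 CPM in BG-treated mice, with almost no spread among the latter (log2 1.47, SE 0.19). Rtp4 was at 3.33, 13.7, 14.3 and 7.44 CPM and at 64.3, 55.5, 78.5 and 39.1 CPM (log2 2.51, SE 0.38). Irf7, the transcription factor that amplifies interferon production, was at 11.2 to 33.3 CPM in control and 44.7 to 71.5 CPM in BG-treated mice (log2 1.45, adjusted p = 0.0133), and Zbp1, a sensor of Z-form nucleic acid, at 36.7 to 71.5 and 89.1 to 129 CPM (log2 1.04). Irf7 lost its call without control mouse 2 (adjusted p = 0.0749), control mouse 3 (0.052) or BG mouse 7 (0.0658). Without BG mouse 7, Zbp1, Lgals3bp, Xaf1 and Trim30a missed as well, as did Zbp1 without control mouse 1, Lgals3bp and Xaf1 without control mouse 3 and Trim30a without either (edgeR adjusted p at most 0.069).

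Interferon-stimulated genes are known to carry the interferon-stimulated response element in their promoters. The promoter sequences of Isg15 and Bst2 are shown because both genes rose and hold its core letters, GAAA, any 2 bases and GAAA again, searched on both strands. Of 32851 RefSeq promoters, 250 bases before to 50 after a gene's start, 3.44% held it. Of the 20 genes that rose, 13 matched promoters, 17 in all, and 4 of those 17 held it (Bst2, Isg15 and Trim30a), against 0 of 16 promoters of the 14 genes called lower. A match describes the letters only. The stretches run from 130 bases before to 25 after the start, from RefSeq on GRCm38.p6, 5′ to 3′ on the gene's strand, with matches in capitals. The Isg15 stretch is chr4:156200794-156200948 on the minus strand, with 3 overlapping matches that start 78 to 66 bases before the start, and the Bst2 stretch is chr8:71537448-71537602 on the minus strand, with 2 overlapping matches.
Isg15: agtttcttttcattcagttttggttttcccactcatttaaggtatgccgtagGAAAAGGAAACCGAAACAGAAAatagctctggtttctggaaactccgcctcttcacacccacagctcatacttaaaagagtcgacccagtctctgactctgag
Bst2: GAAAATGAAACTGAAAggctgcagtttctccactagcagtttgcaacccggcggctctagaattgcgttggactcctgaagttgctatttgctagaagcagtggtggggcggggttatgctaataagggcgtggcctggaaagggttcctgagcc

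Of 28 effector genes 17 were tested and 2 rose, Gzmb and Prf1, with a list median of 0.35 and 16 positive values. Gzmb, which encodes granzyme B, was at 140, 101, 192 and 160 CPM in control and at 327, 302, 444 and 483 CPM in BG-treated mice (log2 1.42, SE 0.18, edgeR adjusted p = 6.15e-05). Prf1, which encodes perforin, was at 6.66, 13.7, 25.8 and 14.9 CPM in control and at 113, 26.3, 84.4 and 71.3 CPM in BG-treated mice (log2 2.22, SE 0.41, adjusted p = 0.00697). BG mouse 6 was only just above control mouse 3 for Prf1, whereas Gzmb left a clear gap. Prf1 lost its call with the 16 further genes at 0 (log2 1.77, adjusted p = 0.136) and without the 6 exclusions (1.26, 0.253), and Gzmb kept its call in both. The chemokines Ccl4 (log2 0.83, adjusted p = 0.0551) and Ccl3 (1.16, 0.12) and the granule protein gene Nkg7 (0.51, 0.0551) did not pass.

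**Figure D4:**
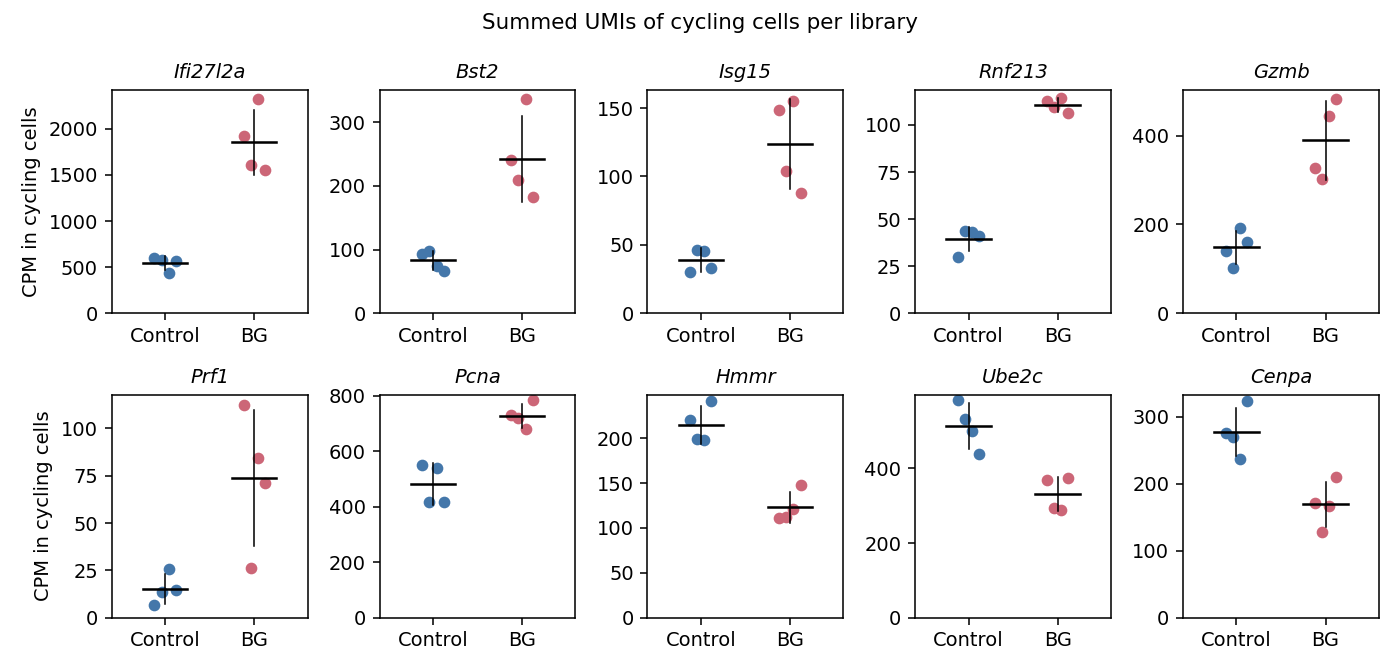
CPM of 10 genes in the cycling cells of each library, with mean ± SD per group (n = 4). Ifi27l2a, Bst2, Isg15, Rnf213, Gzmb, Prf1 and Pcna lie higher in all 4 BG-treated mice, and Hmmr, Cenpa and Ube2c, the last a gene of the rule, lie lower.

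Single genes passed in the receptor and activation lists. Of 24 NK and innate receptor genes 20 were tested, with a median of 0.49, and 1 rose, Klrb1c (NK1.1), at 26.7, 73.8, 48.6 and 81.8 CPM in control and 92.9, 110, 102 and 149 CPM in BG-treated mice (log2 1.01, SE 0.23, edgeR adjusted p = 0.0387). Control mouse 1 was low for it, and without that mouse the adjusted p missed the threshold, as it did without control mouse 3, BG mouse 7 or BG mouse 8 (at most 0.181). Of 24 activation genes 17 were tested, with a median of 0.24, and 1 rose, Il2rb, the β chain of the receptors for interleukins 2 and 15, at 387, 451, 329 and 554 CPM and at 566, 606, 640 and 781 CPM (log2 0.60, adjusted p = 0.0466). The Il2rb groups were separated by a narrow gap, and the call was lost in 7 of 8 fits that left out 1 library. Of 33 interferon-γ genes 26 were tested, with a median of 0.23. Gbp9, a guanylate-binding protein, rose (log2 1.34, adjusted p = 0.0386), and Irf8, a factor also used as a dendritic cell marker, fell (log2 -0.87, adjusted p = 0.0393). Each of these calls was lost in 7 of 8 fits that left out 1 library, with Gbp9 called only without BG mouse 6 and Irf8 only without control mouse 4.

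Genes outside the interferon and effector lists that rose included Apoe, a lipid carrier (log2 1.48, adjusted p = 0.00408), Socs2, an inhibitor of cytokine signalling (log2 1.39, adjusted p = 0.0408, groups overlapping), and the chaperone gene Hsp90aa1 (log2 0.55, adjusted p = 0.0232). They were chosen after their values were seen. Socs2 lost its call in 6 of 8 fits without 1 library, and Hsp90aa1 without control mouse 1 or 2 or BG mouse 5 or 7. Apoe was at 46.7, 76.5, 97.3 and 40.9 CPM in control and at 164, 275, 207 and 116 CPM in BG-treated mice, but the difference was gone when the 6 exclusions were dropped (log2 -0.0105). The lists with no called gene were naive and memory genes (14 of 21 tested, median 0.08), lineage transcription factors (15 of 22, -0.07), chemokine receptors and integrins (13 of 19, 0.09) and ribosome biogenesis (20 of 24, 0.18). Klf2, the factor that keeps T cells circulating, had log2 -0.59 (adjusted p = 0.0949), and Tcf7, of naive and memory T cells, -0.57 (adjusted p = 0.149).

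Among cycle genes, S phase members leaned up and mitotic members down. All 34 S phase genes were tested, 32 had positive values (median 0.30), and 1 rose, Pcna, the sliding clamp of DNA polymerases, at 550, 416, 541 and 416 CPM in control and at 729, 717, 680 and 785 CPM in BG-treated mice (log2 0.60, SE 0.12, edgeR adjusted p = 0.0161). Of 39 G2/M genes 38 were tested, 35 had negative values (median -0.26), and 2 fell. Hmmr, a spindle assembly protein, was at 220, 200, 197 and 242 CPM in control and at 111, 113, 121 and 148 CPM in BG-treated mice (log2 -0.77, SE 0.14, adjusted p = 0.00697). Cenpa, the histone of centromeres, was at 277, 271, 238 and 324 CPM and at 172, 129, 166 and 210 CPM (log2 -0.68, SE 0.15, adjusted p = 0.0232). Neither gene overlapped between the groups.

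The 7 cycle genes of the rule are given as a description, since they chose the cells. Ube2c, a ubiquitin-conjugating enzyme of mitosis, was at 583, 533, 501 and 439 CPM in control and at 370, 294, 290 and 374 CPM in BG-treated mice (log2 -0.63). Mki67 (-0.18), Birc5 (-0.25), Cenpf (-0.53) and Pclaf (0.18) had smaller values. The cyclin B genes Ccnb1 (log2 -0.90) and Ccnb2 (-0.60), whose products drive entry into mitosis, both missed at an adjusted p of 0.0551. Of 26 genes that control cyclin-dependent kinases 23 were tested (median -0.05) and Ccnd3, the cyclin D of dividing lymphocytes, rose, from 193, 205, 252 and 186 CPM to 339, 298, 339 and 302 CPM (log2 0.60, adjusted p = 0.0232). These calls were near the threshold. Leaving out 1 library at a time, Hmmr lost its call without BG mouse 7 (adjusted p = 0.0524), Pcna without control mouse 2 (0.102) or BG mouse 7 (0.057), Ccnd3 without control mouse 1, 2 or 4 or BG mouse 5 or 7 (at most 0.0951), and Cenpa in every fit but those without control mouse 3 or BG mouse 8 (at most 0.0904).

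Promoters of genes expressed in G2 and mitosis are known to hold the cell cycle genes homology region, and the promoters of Hmmr and Cenpa, which fell, and of Ube2c, a gene of the rule, are shown because they hold its core TTTGAA, searched on both strands and so also read as TTCAAA. It was in 17.9% of all RefSeq promoters, in 5 of 16 promoters of the 14 genes called lower, Ube2c included, and in 4 of 17 of genes that rose. The letters CCAAT, on both strands, were in 37.4% of all promoters, in 11 of 16 of genes called lower and in 3 of 17 of genes that rose. The stretches are drawn as above: chr2:164769799-164769953 on the plus strand for Ube2c, chr11:40733413-40733567 on the minus strand for Hmmr and chr5:30666756-30666910 on the plus strand for Cenpa, with the core in capitals.
Ube2c: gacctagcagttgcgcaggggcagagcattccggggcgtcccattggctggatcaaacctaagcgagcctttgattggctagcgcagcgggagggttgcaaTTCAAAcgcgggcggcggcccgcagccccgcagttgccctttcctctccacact
Hmmr: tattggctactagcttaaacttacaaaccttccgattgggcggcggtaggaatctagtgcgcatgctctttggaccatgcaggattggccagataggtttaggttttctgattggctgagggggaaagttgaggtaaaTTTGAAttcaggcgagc
Cenpa: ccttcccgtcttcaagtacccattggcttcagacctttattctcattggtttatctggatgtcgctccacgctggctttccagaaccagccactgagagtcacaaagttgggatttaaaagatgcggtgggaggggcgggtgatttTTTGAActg

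The other genes that fell were a mixed group. Hmgcs1, an enzyme of cholesterol synthesis, was at 46.7, 60.1, 45.8 and 37.2 CPM in control and at 19.7, 26.3, 21.3 and 19.6 CPM in BG-treated mice (log2 -1.16, edgeR adjusted p = 0.0232). Bcl2a1d, a survival protein of the BCL2 family, was at 103, 65.6, 85.9 and 63.2 CPM and at 37.5, 36.5, 25.6 and 44.0 CPM (log2 -1.14, adjusted p = 0.0117). Both were separated between the groups. Dap, Rgs10 and Rasa3 were also called lower without overlap (log2 -0.83, -0.83 and -0.95). In fits without 1 library, Hmgcs1, Dap and Rgs10 each lost the call in 6 of 8 and Rasa3 in 7 of 8, and Bcl2a1d lost it without control mouse 1 or 3 or BG mouse 7 (edgeR adjusted p at most 0.0797). The remaining 6 genes overlapped between the groups, among them H2-DMa (log2 -1.57), Mpeg1 (-2.18), Wdfy4 (-1.96), Naaa (-1.87) and Irf8. Dendritic cells express these genes, but not they alone, and which cells held the RNA was not tested. H2-DMa was at 123, 95.7, 140 and 26.0 CPM in control and at 32.2, 45.3, 26.4 and 32.1 CPM in BG-treated mice. B cell genes took 0.237, 0.250, 0.282 and 0.0267% of UMIs in control and 0.0862, 0.108, 0.140 and 0.0838% in BG-treated mice. Mpeg1 was at 86.6, 90.2, 83.0 and 11.2 CPM in control and at 21.4, 14.6, 25.6 and 4.19 CPM in BG-treated mice, with control mouse 4 within the BG range. When the 6 exclusions were dropped, Mpeg1 was at -0.23 (edgeR adjusted p = 0.747), Naaa at -0.53 (0.429) and Wdfy4 at -0.68 (0.35), none of them called, and H2-DMa at -0.86 (0.0432). By DESeq2 the 4 genes had values near those of edgeR, with none called (Mpeg1 -2.06, adjusted p = 0.348). The 16 further genes at 0 left out 61 of 170 control and 198 of 545 BG cells, and none of the 4 genes was then tested, while Irf8 turned to 0.67 (edgeR adjusted p = 0.528). With 8 further genes at 0 (Cd79b, Ms4a1, Stab2, Clec4g, Lyz2, C1qa, C1qb and Cd5l) Irf8 was at -0.04 (edgeR adjusted p = 0.982). In fits without 1 library, Naaa lost its call in 4 of 8, Wdfy4 in 6 of 8 and H2-DMa without control mouse 3 or BG mouse 7.

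Markers of other cells were present in the UMIs of cycling cells, in shares that varied between mice. B cell genes took 0.0267 to 0.282% in control and 0.0838 to 0.140% in BG-treated mice, with 5 of 12 tested and 0 called. Their means were 0.199 and 0.104% (exact permutation test, p = 0.143), against 0.0894 and 0.0763% in non-cycling cells. In control mouse 4 and BG mouse 5 the B cell share was lower in cycling than in non-cycling cells. The control mean in cycling cells exceeded that of the lineage genes of the rule, and the BG mean did not. Which cells held the B cell RNA was not tested. Myeloid genes took 0.717% in control mouse 1, of which S100a9 had 1234 UMIs, and 0.00463 to 0.0379% in the other 7 mice, with 2 of 15 tested and 0 called. Endothelial genes took means of 0.00904 and 0.00978%, hepatocyte genes 0.0117 and 0.0147%, plasmacytoid dendritic genes 0.0265 and 0.0155% (Irf8 called, Cd209d at 0) and erythroid genes 0.00421 and 0.0158%. Apart from Irf8 no gene of these lists was called.

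The BG response of cycling cells was set beside that of non-cycling T and innate lymphocytes from the same mice, and the difference between the 2 responses was tested within mice. In non-cycling cells 136 of 11097 genes rose, 1.23%, and 8 fell, 0.0721%. Of the interferon genes 42 of 47 tested rose there, with a median of 0.96. The share of UMIs from the list went from 0.268 to 0.514% in cycling and from 0.313 to 0.610% in non-cycling cells. In the test of the difference, 0 of 47 interferon genes passed, with a median difference of -0.06, against 13 genes with a higher value in cycling cells (0.123% of 10588 tested) and 38 with a lower (0.359%). At an unadjusted p below 0.05 there were 1024 genes.

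Prf1, on the scale of the joint fit, went from 6.05, 12.7, 23.8 and 13.6 CPM to 106, 24.7, 78.8 and 66.7 CPM in cycling cells. In non-cycling cells it was at 101, 72.2, 79.2 and 91.0 CPM in control and at 94.6, 84.9, 87.5 and 114 CPM in BG-treated mice. Cycling cells of control mice were thus far below non-cycling ones, and those of BG-treated mice lay near them except in BG mouse 6 (difference of log2 responses 2.05, edgeR adjusted p = 0.00769). The difference held in the 8 fits without 1 library and was not called at most 2500 genes (1.09, edgeR adjusted p = 0.364), with the 16 further genes at 0 (1.56, 0.0516) or without the 6 exclusions (1.06, 0.38). Effector genes had 3 of 22 members with a greater response in cycling cells, Prf1, Gzmb (0.77, adjusted p = 0.025) and Ccl4 (0.98, 0.00982), with a list median of 0.45. Of 24 NK and innate receptor genes 2 did, Klrb1c (1.07, 0.0208) and Klre1, with a median of 0.53. The early activation gene Cd69 (0.58, adjusted p = 0.0169) and the immediate early factor Klf6 (0.58, 0.0102), Apoe (1.3003, 0.0156) and Socs2 (1.302, 0.0156) passed as well. Ccl4 was not called at most 2500 genes (0.49, adjusted p = 0.377) or with at least 4 of the 7 cycle genes (0.86, 0.0678), nor Klf6 without the 6 exclusions (0.37, 0.251). Cd69 lost the call without control mouse 1 or 2 or BG mouse 6 or 8, Socs2 without control mouse 1 or 3 or BG mouse 7 or 8, and Apoe without control mouse 2 (1.22, adjusted p = 0.0632).

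**Figure D5:**
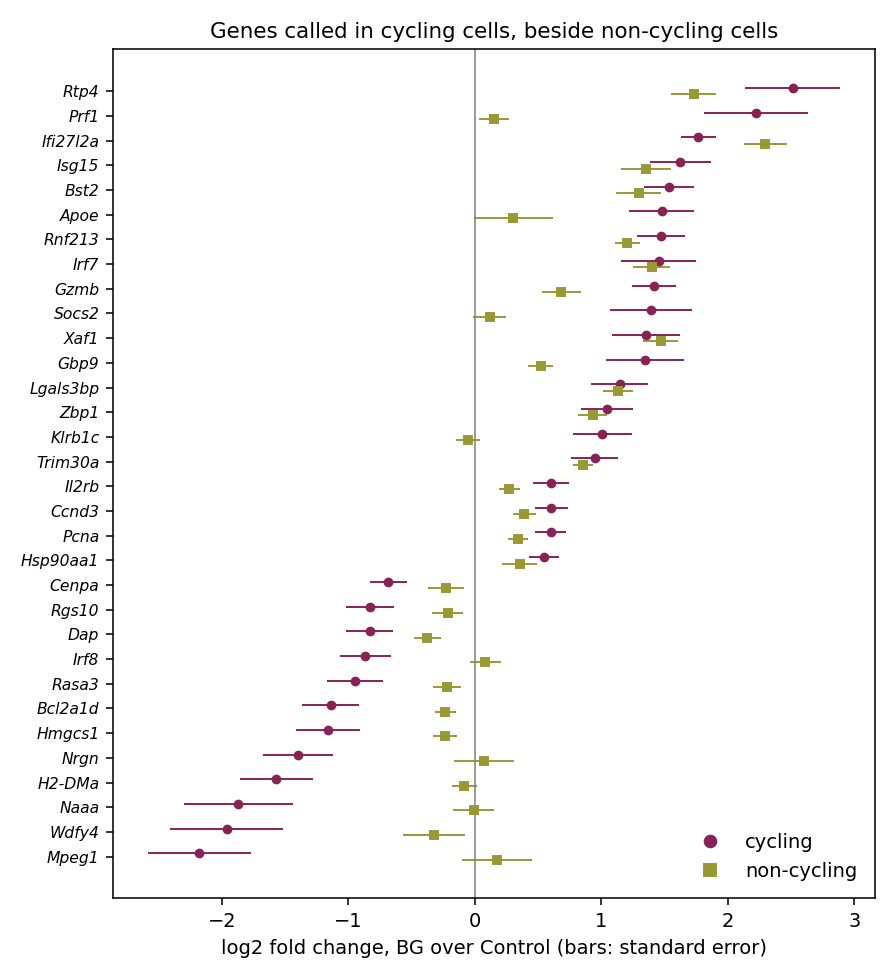
Log2 fold change, BG-treated over control, ± SE for 32 genes in cycling and in non-cycling T and innate lymphocytes. Ifi27l2a, Bst2 and Isg15 lie high in both (1.77 and 2.30 for Ifi27l2a), and Prf1 lies high in cycling cells only (2.22 against 0.15).

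In the other direction stood S phase genes. Of 34 tested, 7 had a lower response in cycling cells (median difference -0.62), and 4 of 39 G2/M genes did (median -0.90). The rule chose both cell sets by cycle genes, so these differences are given as a description. In non-cycling cells alone only 13 of the 39 G2/M genes passed the filter on low counts. Some were near the floor there, such as Cenpe, with means of 1.05 CPM in control and 2.34 CPM in BG-treated mice. Uhrf1, which carries DNA methylation through replication, was at 150 to 166 CPM in cycling cells of control mice and at 173 to 225 CPM in those of BG-treated mice. In non-cycling cells it was at 2.25, 3.08, 2.71 and 1.96 CPM in control and at 10.3, 8.79, 16.1 and 10.9 CPM in BG-treated mice (difference -1.85, edgeR adjusted p = 0.000415). The replicative helicase genes Mcm3 (0.11 in cycling, 1.40 in non-cycling, difference -1.24, adjusted p = 0.000859) and Mcm5 (0.28, 1.54, -1.19, 0.000965) did the same. In all, 17 of 32 S phase genes rose in non-cycling cells (median 0.85), although none of the 7 rule genes was detected in them. Camp, Ngp and Chil3, genes of neutrophil precursors, had differences of -9.31, -7.51 and -6.23, and rested on control mouse 1. Camp was at 1123 CPM in its cycling cells against at most 0.654 CPM in the cycling cells of the other mice. In non-cycling cells Camp was at 47.0 CPM in control mouse 1 and at 26.1 CPM in BG mouse 8.

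Within cycling CD4 T cells alone, 7 libraries had at least 10 cells, with 11, 12 and 13 cells in control and 19, 24, 32 and 56 in BG-treated mice, and control mouse 2, with 8, was dropped. Of 2336 tested genes 6 rose, 0.257%, and 2 fell, 0.0856%. Interferon genes were 5 of the 6, out of 20 tested (median 1.00): Ifi27l2a was at 1055, 835 and 713 CPM in control and at 2646, 2939, 4629 and 2790 CPM in BG-treated mice (log2 1.90, edgeR adjusted p = 0.0002), and Isg15, Bst2, Rnf213 and Ly6a also rose. Rnf213 was at 31.0, 35.3 and 31.9 CPM and at 124, 134, 132 and 139 CPM (log2 2.01, adjusted p = 0.0173). The last was Ly6c2 (log2 2.00, adjusted p = 0.0112). Sptbn1 (-1.12, 0.0216) and Rasa3 (-2.18, 0.0245) fell. In 7 fits without 1 library, Ifi27l2a kept its call in all. Bst2 lost it without control mouse 1, Isg15 and Ly6c2 without control mouse 3, Rnf213 without control mouse 1 or 3 or BG mouse 8 and Ly6a without control mouse 1 or 3 or BG mouse 7. Sptbn1 lost it in 5 fits and Rasa3 in 4 (edgeR adjusted p at most 0.239). None of 27 G2/M genes passed, though every value was negative (median -0.51), nor did any of 25 S phase genes (median 0.23).

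Set against non-cycling cells of the same mice, the cycling cells looked as the rule made them, and the values are given as a description without a test. Of 5493 genes at 20 CPM or more, 1143 were higher and 1444 lower in all 8 mice, with a median log2 ratio of -0.08. All 35 G2/M genes at that level were higher in all 8 mice (median 5.46, Nusap1 7.34, Hmmr 7.02 and Ccna2 6.75), as were all 33 S phase genes (median 2.62, Rrm2 6.19, Tk1 5.04). Ribosome biogenesis genes were higher in 14 of 20 (median 0.52, Ran 1.66), and cell cycle transcription factors were among the highest of their list (E2f8 5.14, Foxm1 4.87).

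Genes of rest and of differentiated function were lower. Naive and memory genes were lower in all 8 mice for 15 of 19 (median -1.33), with Pik3ip1, a brake on phosphoinositide 3-kinase, at -2.001, Bcl2, a survival protein, at -1.81 and Txnip, a regulator of glucose uptake, at -1.76. NK and innate receptor genes were lower for 16 of 23 (median -0.94, Klrb1c -1.73 and Tyrobp -1.39). Effector genes were lower for 11 of 18 (median -0.77, Fasl -1.69), interferon genes for 24 of 35 (median -0.66, Slfn5 -2.62 and Ifit1 -1.82) and activation genes for 11 of 15 (median -0.57). The collagen-binding integrin gene Itga1 was at -1.54 and Cxcr6 at -1.03, while Itgb1, the common β1 integrin chain, was at 0.91 and higher in all 8 mice. These ratios are shares of a larger RNA content, since cycling cells held more UMIs each.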

How the data were processed

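The authors deposited UMI counts per gene and barcode for each 10x Genomics 3' v3.1 library, as Cell Ranger 6.1.2 (per the file headers) gave them on mm10 with introns included. All values were whole-number counts of 32285 genes, with no normalization. The members, gene lists and subsets were chosen with earlier results of these data known. Barcodes were filtered and gated as given in the report. Exact permutation tests were two-sided over the 8 libraries, with at most 70 regroupings. Counts were summed per library and cell set (at least 10 cells) and tested with edgeR 4.0.16 (limma 3.58.1, R 4.3.3): filterByExpr, TMM, quasi-likelihood F-test, Benjamini-Hochberg over all tested genes, called at adjusted p below 0.05 and log2 over 0.5 or under -0.5. The difference of responses was an interaction with the mouse as a term. Python 3.11.15 with scipy 1.17.1 did the rest. Tested on simulated data (5668 genes, 200 of them changed by log2 1.5, drawn for the cycling cells), the fit recovered 96% with 7 false calls. The simulated spread came from the fit itself, and smaller changes and RNA of other cells were not simulated.

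Named genes were up to 12 called genes per direction with the smallest p among those whose libraries did not overlap, up to 4 members with the smallest p per list, the genes of the rule and subsets, and the 6 smallest p per direction for the difference of responses. Against non-cycling cells they were the list members of largest ratio and 15 genes outside the lists in each direction at a mean of at least 20 CPM. Any other gene was named after its values were seen. Alternatives were DESeq2 1.42.0 and its size factors, no low-count filter, at most 2500 genes, at most 10% mitochondrial UMIs, at least 4 of the 7 genes, thinning to 1500 UMIs, 8 or 16 further genes at 0, no exclusions, and leaving out each library. The 16 further genes and the dropping of the exclusions were chosen after seeing the data. The labels do not say that mice were housed or prepared separately, so p-values measure the spread between these 8 libraries.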

Additional observations from a re-analysis of the deposited data

Results flagged for a closer look

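Of 184 sets of 4 libraries checked, 13 had a library far from the other 3, by the gap to the nearest other value over the whole range. Chance gives such a gap in about 1 in 20 sets. Control mouse 1 stood apart in the median UMIs (gap ratio 0.917) and median genes (0.880) of its cycling cells, in the mitochondrial share of its non-cycling cells (0.980) and in the myeloid share of UMIs of its cycling cells (0.953). Control mouse 2 stood apart in erythroid UMIs (0.881), control mouse 3 in the ratio of S phase to G2/M UMIs (0.876) and control mouse 4 in Mpeg1 (0.909). BG mouse 5 stood apart in the share of double-negative innate-like T cells among cycling cells (0.875), in the cycling share of plasmacytoid dendritic cells (1, it alone having any) and in Gbp9 (0.838). BG mouse 7 stood apart in the share of UMIs from interferon genes (0.8294), and BG mouse 8 in erythroid UMIs (0.973) and Dap (0.855).

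The BG response differed between cycling and non-cycling cells by edgeR's interaction test for the following genes, as the difference of log2 fold changes. It was greater in cycling cells for Prf1 (2.05), Apoe (1.3003), Socs2 (1.302), Ccl4 (0.98), Klf6 (0.58) and Cd69 (0.58). It was lower for Camp (-9.31), Ngp (-7.51), Chil3 (-6.23), Uhrf1 (-1.85), Mcm3 (-1.24) and Mcm5 (-1.19). For the cycle genes Uhrf1, Mcm3 and Mcm5 this is a description, since the rule chose both cell sets by cycle genes.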

How the results depend on the processing

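No paired analysis was possible because control and BG-treated mice share no replicate numbers. The share of cycling cells kept its direction and non-overlap under every cell filter tried. Leaving out each library gave a fold of 3.31 (without BG mouse 8) to 4.30 (without BG mouse 6) of T and innate lymphocytes and of 3.49 to 4.75 of kept cells; the exact p was 0.0571 without any 1 of the control mice and 0.0286 without any 1 of the BG-treated mice. The number of subsets passing went from 7 to 0 at most 2500 genes (2 at the raw p), to 0 at most 10% mitochondrial UMIs (4 at the raw p) and to 0 after thinning, and ran from 0 to 8 without 1 library; for make-up and for the other gates it stayed at 0. The ratio of S phase to G2/M UMIs differed 1.53-fold with 16 further genes at 0 (exact permutation test, p = 0.0857) and 1.46 (without BG mouse 6) to 1.65-fold (without control mouse 3) without 1 library.

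In cycling cells, 34 genes were called in the report; 166 were without the filter on low counts (84 higher, 82 lower), 5 at most 2500 genes (4 and 1), 20 with 8 further genes at 0 (14 and 6), 12 with 16 further genes at 0 (9 and 3, 11 shared), and 8 (without BG mouse 7) to 59 (without control mouse 4; 24 higher, 35 lower) without 1 library, 17 without control mouse 1. In non-cycling cells 144 became 218 without the filter (190 higher, 28 lower), and 112 (without control mouse 3) to 167 without 1 library. For the difference of responses 51 became 19 by DESeq2 (14 and 5), 141 without the filter (53 and 88), 28 at most 2500 genes (9 and 19), 26 without the 6 exclusions (1 and 25), and 27 (without control mouse 1) to 81 (without control mouse 4) without 1 library. In cycling CD4 T cells 8 became 26 without the filter (19 and 7), 4 with at least 4 of the 7 cycle genes, 20 without the 6 exclusions (11 and 9), and 2 (without control mouse 3) to 14 (without control mouse 4) without 1 library. Fits with fewer cells or genes have less to test; the cause was not tested otherwise.

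Ifi27l2a, Bst2, Gzmb and Rtp4 kept their calls under all 16 alternatives. Signs turned for Irf8 (0.00196 at most 2500 genes and 0.67 with 16 further genes at 0), Apoe (-0.0105 in cycling cells and -0.0315 for the difference, both without the 6 exclusions) and Chil3 (4.13 at most 2500 genes, and -7.39 without control mouse 2 to 3.66 without control mouse 1 among fits without 1 library); the cause was not tested. Cycling CD4 T cells could not be fitted at most 2500 genes or with 16 further genes at 0, with too few libraries of 10 cells. DESeq2 gave no adjusted p for 8 of 12 genes named for the difference of responses, Prf1 among them, and these are counted neither as kept nor as lost.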

Other observations

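Genes outside the lists also separated cycling from non-cycling cells, as a description over the 8 mice and named after their values were seen. Replication-dependent histone genes stood highest, with Hist1h1b at 779 CPM in cycling and 2.39 CPM in non-cycling cells (log2 ratio 7.92), Hist1h2ap at 6.25 and Hist1h3c at 6.11 on the log2 scale. Stmn1, which destabilizes microtubules, was at 1370 and 20.1 CPM (6.43), followed by the cohesion gene Esco2 (6.62), the spindle kinesin Kif15 (5.88), the kinetochore gene Spc24 (5.82) and the DNA glycosylase gene Neil3 (5.34). Among the lowest were Clu (-3.22), the glycosyltransferase gene Gcnt2 (-2.38), the transcription factor genes Zbtb4 (-2.24) and Klf9 (-2.05), the histone demethylase gene Kdm5b (-2.03), and the immediate early gene Junb, at 472 and 1837 CPM (-1.95).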
